A study of Mus musculus with 12 samples.

Results

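The mitochondrial respiratory chain passes electrons from nutrients to oxygen through complexes I to IV in the inner mitochondrial membrane, and complex V, the ATP synthase, uses the resulting proton gradient to make ATP. Most of its subunits are encoded in the nucleus and imported, while a few are encoded by mitochondrial DNA and made inside the organelle. The heart beats on ATP from this chain, and its nuclear subunit genes are among the most highly expressed genes of cardiac tissue, some of them as muscle isoforms that replace a general form after birth. The nuclear-encoded subunits were picked from the gene table by their symbols, which begin with Ndufa, Ndufb, Ndufc, Ndufs or Ndufv and a number, are Sdha to Sdhd, or begin with Uqcr, Cox4 to Cox8 or Atp5, leaving out symbols that contain -ps. This gave 89 of the 55885 genes, with 38 in complex I, 4 in complex II, 8 in complex III, 21 in complex IV and 18 in complex V. Ndufa4 and its paralogue Ndufa4l2, named after complex I, were counted with complex IV, where the Ndufa4 protein is now placed. The annotation lists 85 of them as protein coding and 4 (Cox6c2, Ndufa11b, Ndufb4c and Ndufs6b) as processed pseudogenes, which are copies of a messenger RNA put back into the genome. The rule also takes in factors that are not subunits, such as Cox7a2l, known for a role in joining complexes III and IV into supercomplexes. Whether Cox7a2l has that role in these mice was not tested. The rule misses Cyc1 and Ndufab1.

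Cardiac tissues of 12 male C57BL/6J mice (C57BL/6 in the labels) aged 8 weeks at the start were sequenced, with 3 hearts in each of 4 groups, each heart from a different animal. The Saline group (wild type, called untreated in the labels) and the CDDP group (wild type, given cisplatin) carried both STING alleles. The STING-/- group and the STING-/-+CDDP group are labelled Tmem173-/-, a knockout of STING, the adaptor that answers DNA in the cytosol, and no driver limiting the deletion to heart cells is named. Cisplatin (CDDP), a DNA-damaging chemotherapy drug with cardiac side effects, was given into the peritoneum on days 1, 8 and 15 (6 mg/kg each time), and the hearts were collected on day 22. Levels are given as TPM, a unit that corrects the reads for gene length and brings every heart to the same total, so that the depth behind a value is unknown. Differences are log2 fold changes of TPM + 1 with their standard error (SE) from limma, and a gene is said to have risen or fallen only where the p-value, adjusted over the 13815 genes that reached 1 TPM in 3 or more hearts, was under 0.05. Of the 89 genes, 84 passed that filter. Ndufa11b, Ndufs6b, Cox8c, Cox7b2 and a second Atp5o entry (ENSMUSG00000116933) did not, with at most 0.37 TPM in any heart.

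The hearts differed in other ways. Sting1 was at 5.62 to 22.1 TPM in the wild-type hearts and at 2.87 to 5.96 TPM in the hearts labelled Tmem173-/-. These ranges overlap, neither difference by genotype passed the test, and the part of the gene that the allele removes is not given in the sources used here, so the Sting1 level does not check the genotype label. The atrial myosin gene Myl7 ranged from 2.48 TPM in the third Saline heart to 6537 TPM in the second Saline heart. Between the CDDP and Saline groups 0 of 5 atrial markers passed the test, and their hearts overlapped. Their median log2 fold change there was 2.99, with 4 of 5 positive. It was 3.96 between STING-/- and Saline (all 5 positive) and -1.35 between STING-/-+CDDP and CDDP (all 5 negative), again with none passing. A fit with Myl7 as a covariate is given below. Cardiomyocyte markers summed to between 26150 and 52030 TPM in every heart, and none was at 0 in all hearts. Their sum was 34780 to 49850 TPM with saline and 26150 to 39570 TPM with CDDP. Of these 8 markers, 7 had negative log2 fold changes between CDDP and Saline (median -0.47), where Actc1 (-3.55) fell and Tnnt2 (0.56) rose. The part of these markers in the members' differences was not tested. Between CDDP and Saline, 6 of 8 macrophage, 3 of 5 fibroblast, 3 of 5 endothelial and 5 of 5 erythroid markers were lower (10.4% of all genes). In the same lists 1 macrophage, 1 fibroblast and 2 endothelial markers had positive log2 fold changes, none past the test. Of 5 tested fat markers 1 (Cidea) was higher (8.52% of all genes). None of 3 tested neutrophil or 2 tested skeletal muscle markers passed. Between STING-/- and Saline, the 5 erythroid markers were all lower without overlap (median -3.01), and none passed. The 5 tested fat markers all had positive values there (median 1.71), also with none passing. In the same comparison 1 of 8 macrophage markers was higher (0.0290% of all genes). The highest value of these 8 was 7.81, also the highest of all genes, beside a median of 0.034. Between STING-/-+CDDP and CDDP, 1 of the 8 was higher too (0.362% of all genes), with a highest value of 5.27 and a median of 0.34. In bulk tissue, fewer cells of a type and less RNA per cell cannot be told apart.

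Respiratory chain genes stood high in all hearts. The 84 tested members had a median level of 668.5 TPM, against 8.08 TPM over all tested genes, and 78 of the 84 averaged over 100 TPM, as did 851 of the 13815. Together the 89 members took 6.92% to 8.45% of all TPM. By complex, the median member level was 1432 TPM in complex V, 1168 in complex III, 869 in complex IV, 482 in complex I and 463 in complex II. The member with the highest level in each complex was Ndufb9 (accessory subunit of complex I, 1153 TPM), Sdhb (the iron-sulfur subunit of complex II, 861 TPM), Uqcrh (the hinge protein of complex III, 1559 TPM), Cox4i1 (the general form of subunit 4 of complex IV, 3179 TPM) and Atp5b (the catalytic beta subunit of complex V, 6475 TPM). None of these 5 passed the test in any comparison. In Atp5b, the Saline hearts had 6396, 5948 and 5891 TPM and the CDDP hearts 5553, 7483 and 6387 TPM, so that the groups overlapped (log2 fold change 0.081, SE 0.13).

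With cisplatin, wild-type hearts had slightly lower levels of most respiratory chain genes. Between the CDDP and Saline groups, 65 of 84 members had a log2 fold change below 0, against 50.2% of all genes tested, and the median was -0.18, against -0.0032 over all genes. Of these, 17 passed the test, and that share, 20.2%, is near the 18.9% of all tested genes that passed. At an unadjusted p under 0.05 there were 31 (33.9% of all genes), 29 lower (17.7% of all genes) and 2 higher (16.2% of all genes). The calls went mainly one way, with 16 lower (19.0%, against 10.4% of all genes) and 1 higher (1.19%, against 8.52%). The CDDP hearts were all below the Saline hearts in 28 members (17.1% of all genes) and all above them in 4 (14.9% of all genes). The shift was not shared by all CDDP hearts. Against the mean of the Saline hearts, the median member was lower by 0.28 and 0.23 on the log2 scale in the first and the third CDDP heart, with 74 and 68 of 84 members below, and was at 0.022 in the second, with 40 below. The second Saline heart lay at -0.10, with 76 members below. The distance of the members' median from that of all genes, -0.17, rested on single hearts. It was -0.044 without the third CDDP heart, -0.058 without the third Saline heart, -0.27 without the second CDDP heart, -0.32 without the second Saline heart and -0.32 with quantile normalization. Without the first CDDP heart the members' median was -0.096, with 56 of 84 below 0, and the distance was -0.17.

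**Figure D1:**
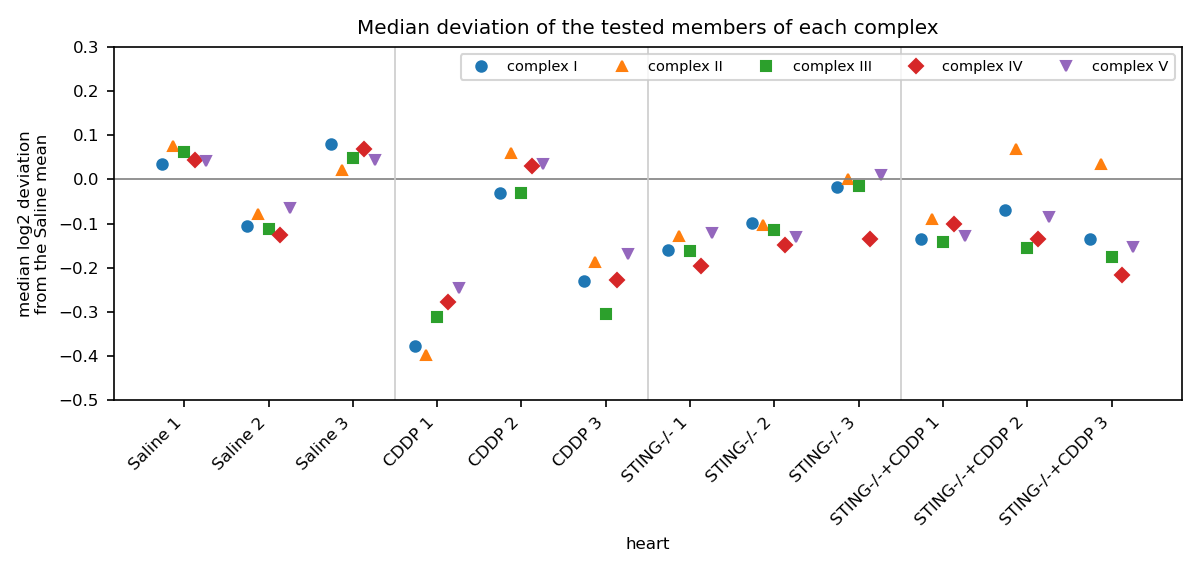
Median log2 deviation from the mean of the Saline hearts (vertical axis) over the tested members of each complex, for each of the 12 hearts (horizontal axis), 1 symbol for each complex. The first and the third CDDP heart lie lowest for all 5 complexes, while the second CDDP heart lies near 0, and within most hearts the complexes move together.

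The 5 complexes shared the direction. The median log2 fold change between CDDP and Saline was -0.19 in complex I, -0.17 in complex II, -0.26 in complex III, -0.18 in complex IV and -0.13 in complex V, beside a spread of that median between hearts of a group of 0.090 to 0.13 (SD). Over all genes tested the median was -0.0032. In complex I, 7 of 36 members fell and none rose. In complex II 1 of 4 fell, in complex III 2 of 8 fell, in complex IV 3 of 19 fell and 1 rose, and in complex V 3 of 17 fell. The shares called in complexes I to V were 19.4%, 25.0%, 25.0%, 21.1% and 17.65%, against 18.9% of all genes. Those that fell were 19.4%, 25.0%, 25.0%, 15.8% and 17.65%, against 10.4% of all genes, while 8.52% of all genes rose. The 11 tested subunits that mitochondrial DNA encodes had a median of -0.078 and none passed the test. Their sum took 18.2% to 22.8% of TPM in the CDDP hearts and 19.1% to 24.3% in the Saline hearts.

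**Figure D2:**
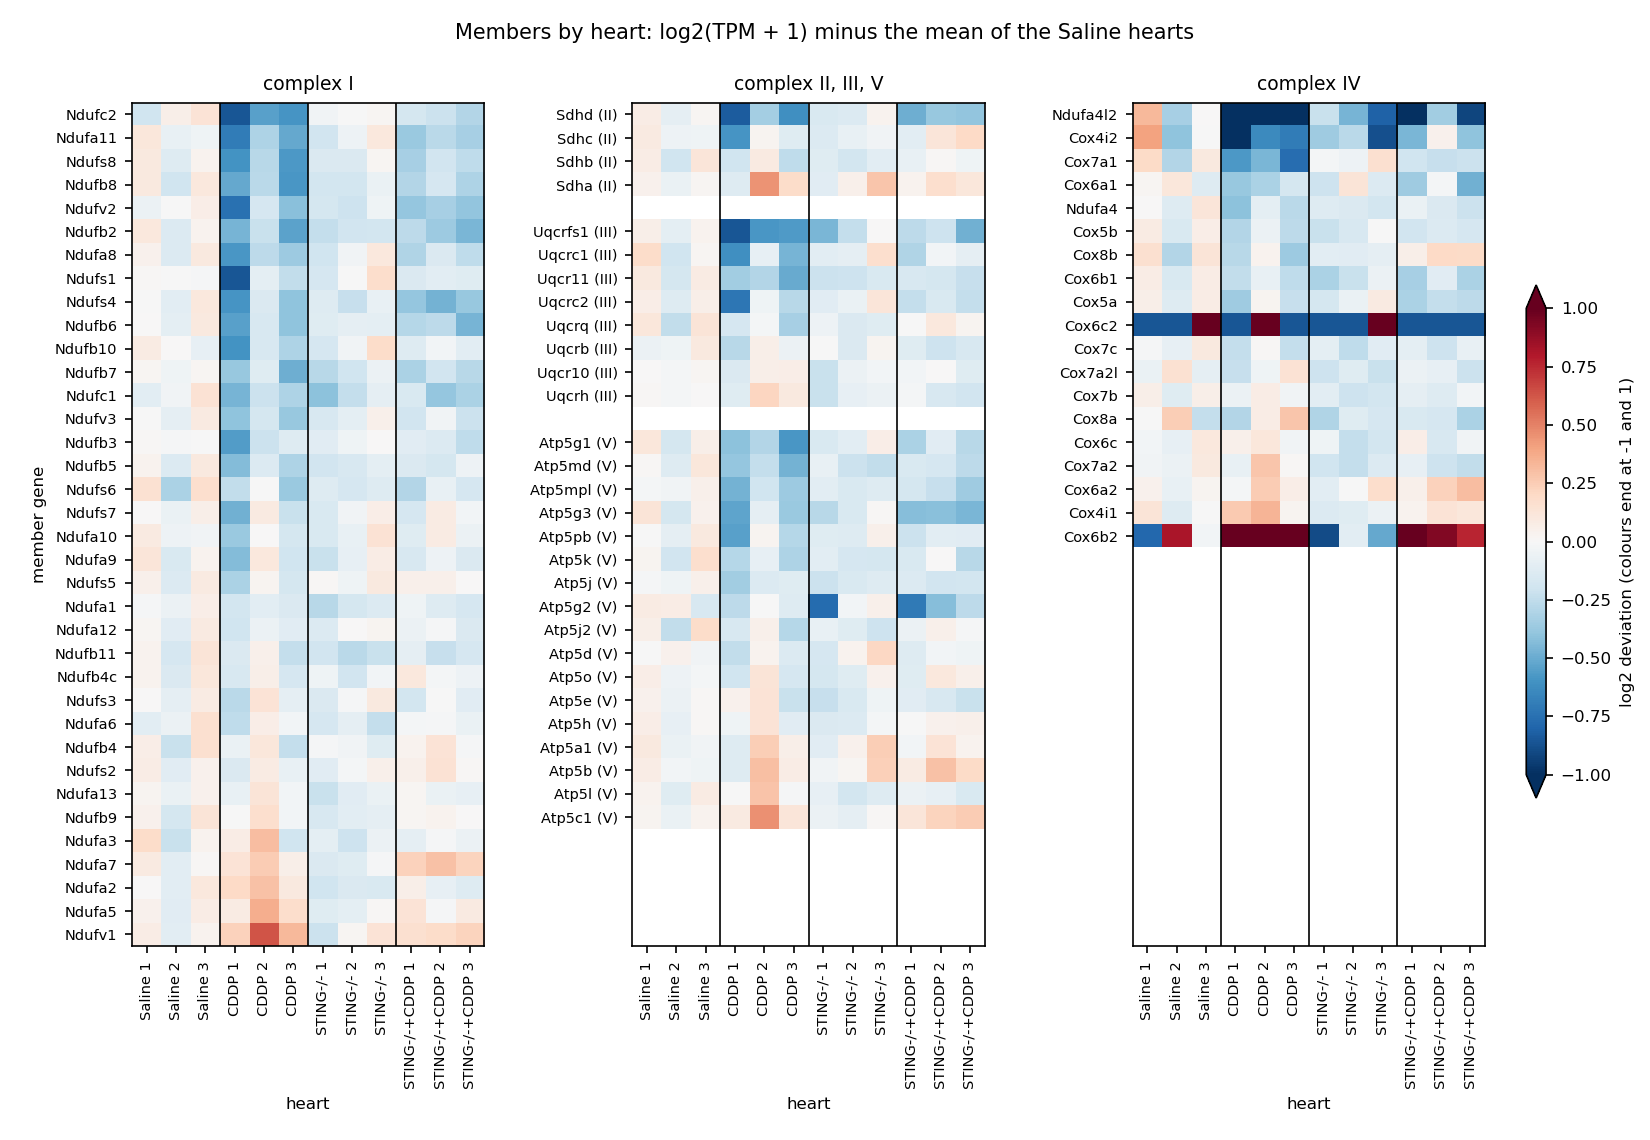
Each row is a tested member and each column a heart; the colour is log2(TPM + 1) minus the mean of the Saline hearts, blue lower and red higher, with colours ending at -1 and 1. Rows run within a complex from the lowest to the highest log2 fold change between CDDP and Saline, from Ndufc2 (-0.66) to Ndufv1 (0.40) in complex I and from Ndufa4l2 (-2.03) to Cox6b2 (1.40) in complex IV.

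Complex I, which takes electrons from NADH, had lower levels of subunits in both arms. Ndufc2 (ENSMUSG00000030647, chr7:97400003-97407802, plus strand), a small accessory subunit of the membrane arm, had 268, 320 and 339 TPM with saline and 170, 211 and 204 TPM with CDDP, while STING-/- hearts had 299, 306 and 313 TPM without and 272, 265 and 251 TPM with cisplatin. The CDDP hearts lay below all 9 others, and Ndufc2 fell by 0.66 on the log2 scale against Saline (SE 0.12, adjusted p = 0.00495). Ndufa11, another membrane-arm subunit, went from 866, 760 and 775 TPM to 492, 646 and 559 TPM, without overlap (log2 fold change -0.51, SE 0.12, adjusted p = 0.0173). Of the 7 core subunits, which carry the electron path from NADH, 2 fell. Ndufs8, which holds iron-sulfur clusters, was at 411, 351 and 394 TPM with saline and 254, 316 and 258 TPM with CDDP, again without overlap (-0.48, SE 0.12, adjusted p = 0.0177). Ndufv2, the other core subunit called, changed by -0.45 (SE 0.14, adjusted p = 0.0425). It was called in only 6 of 24 alternatives, where its log2 fold change ran from -0.59 to -0.29. Ndufv1, which binds NADH beside it, had 424, 374 and 412 TPM with saline and 473, 624 and 505 TPM with CDDP, higher without overlap, but did not pass (0.40, SE 0.13, adjusted p = 0.0559). The accessory subunits Ndufb8, Ndufb2 and Ndufa8 fell by 0.45, 0.41 and 0.40, and were called in 17, 16 and 8 of 24 alternatives. Ndufb8 is the most abundant of the called subunits of complex I, at 1281, 1048 and 1288 TPM with saline and 844, 998 and 802 TPM with CDDP.

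Complex II, the succinate dehydrogenase of the citric acid cycle, had 1 subunit that fell. Sdhd (ENSMUSG00000000171, chr9:50596357-50603812, minus strand), a membrane anchor that helps bind ubiquinone, had 458, 409 and 441 TPM with saline and 245, 345 and 284 TPM with CDDP, while STING-/- hearts had 392, 396 and 446 TPM without and 310, 334 and 332 TPM with cisplatin. All 3 CDDP hearts were below all 3 Saline hearts (-0.59, SE 0.13, adjusted p = 0.0106). The STING-/-+CDDP hearts were also below the STING-/- hearts without overlap, where the difference did not pass the test (-0.34, SE 0.13, adjusted p = 0.279). Between CDDP and Saline, the other subunits did not pass, with log2 fold changes of -0.23 for the second anchor Sdhc, -0.12 for Sdhb and 0.17 for the flavoprotein Sdha.

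Complex III hands electrons from ubiquinol to cytochrome c. Uqcrfs1 (ENSMUSG00000038462, chr13:30540308-30545362, minus strand), the Rieske iron-sulfur protein that carries the electron, had 747, 670 and 735 TPM with saline and 396, 477 and 484 TPM with CDDP. The STING-/- hearts had 522, 608 and 717 TPM and the STING-/-+CDDP hearts 597, 619 and 513 TPM, so that the CDDP hearts lay below all others. Uqcrfs1 fell by 0.67 (SE 0.14, adjusted p = 0.00831) and was called under all 24 alternatives, as was Ndufa4l2 and no other member. The small subunit Uqcr11 fell by 0.38 (SE 0.10, adjusted p = 0.0270), from 1793, 1490 and 1775 TPM to 1320, 1371 and 1182 TPM, without overlap. The core proteins Uqcrc1 and Uqcrc2 had log2 fold changes of -0.39 and -0.35 with overlapping hearts (adjusted p = 0.109 and 0.142). Uqcrq had -0.17, Uqcrb -0.092, Uqcr10 -0.0067 and Uqcrh 0.065, none past the test.

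Complex IV, the cytochrome c oxidase, held the members with the largest changes, and the 4 called are all isoforms or paralogues known from particular tissues or conditions. Ndufa4l2 (ENSMUSG00000040280, chr10:127514967-127517154, plus strand), a paralogue of the subunit Ndufa4 that low oxygen is known to induce, had 61.0, 38.1 and 48.6 TPM with saline and 8.27, 14.1 and 11.7 TPM with CDDP. The STING-/- hearts had 41.3, 34.8 and 27.3 TPM and the STING-/-+CDDP hearts 23.8, 37.7 and 25.1 TPM, and the CDDP hearts lay below all 9 others. The fall with cisplatin in wild-type hearts was 2.03 on the log2 scale (SE 0.25, adjusted p = 8.02e-04). Ndufa4l2 lies antisense to Shmt2, which averaged 21.0 TPM against 31.0 TPM for Ndufa4l2, and whether the reads were counted by strand is not given in the sources used here.

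Cox4i2 (ENSMUSG00000009876, chr2:152754173-152765037, plus strand), the form of subunit 4 known from lung and from vessel walls, was at 32.8, 18.4 and 24.4 TPM with saline and 10.5, 15.4 and 14.7 TPM with CDDP. The groups did not overlap, and Cox4i2 fell by 0.83 (SE 0.25, adjusted p = 0.0368). Ndufa4l2 and Cox4i2 are both known in mural cells, the pericytes and smooth muscle around vessels. Of 8 mural cell markers, listed after the values had been seen, 6 were lower in the CDDP than in the Saline hearts (10.4% of all genes). All 8 had negative log2 fold changes (median -1.01). Their summed level was 262 to 470 TPM with saline and 123 to 213 TPM with CDDP, and in STING-/- hearts 274 to 429 TPM without and 244 to 283 TPM with cisplatin, and none was at 0 in all hearts. Of 10 genes induced by hypoxia, listed in the same way, 4 were lower (Egln3, Vegfa, Ankrd37 and Egln1) and 2 higher (Bnip3 and Slc2a1) with cisplatin. Of all genes, 10.4% were lower and 8.52% higher. The part of mural cells or of a hypoxia response in these falls was not tested.

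Cox7a1 (ENSMUSG00000074218, chr7:30184144-30186078, plus strand), the heart and skeletal muscle form of subunit 7a, was by far more abundant. Its level was 2801, 2001 and 2617 TPM with saline and 1640, 1779 and 1446 TPM with CDDP, and in STING-/- hearts 2415, 2359 and 2739 TPM without and 2134, 2085 and 2112 TPM with cisplatin. The CDDP hearts were below all others, and Cox7a1 fell by 0.60 (SE 0.14, adjusted p = 0.0119). Cox6b2 (ENSMUSG00000051811, chr7:4751792-4753094, minus strand), a form of subunit 6b known from testis, was the only member that rose. Its level was 1.87, 7.72 and 3.86 TPM with saline and 9.98, 16.8 and 10.4 TPM with CDDP (log2 fold change 1.40, SE 0.39, adjusted p = 0.0287), and it stayed low beside the general form Cox6b1, which averaged 1301 TPM. The call for Cox6b2 was lost without the second CDDP heart, the first Saline heart or the third Saline heart, without a filter, and with only these groups fitted.

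In complex V the changes were small, and the subunits called were not in the catalytic head. None of the 5 subunits of the F1 head and central stalk (Atp5a1, Atp5b, Atp5c1, Atp5d and Atp5e) passed, and their median log2 fold change was 0.058. Nor did any of the 4 tested subunits of the peripheral stalk, which holds the head in place (median -0.14). Of the 3 genes that encode the same mature c subunit of the rotating ring, Atp5g1 fell by 0.43 (SE 0.12, adjusted p = 0.0296), from 2719, 2226 and 2610 TPM to 1886, 2049 and 1677 TPM without overlap. Atp5g3 had -0.33 and Atp5g2 -0.13, neither past the test. Among the small membrane subunits, Atp5md fell by 0.37 and Atp5mpl by 0.34 (adjusted p = 0.0338 and 0.0364), and these 2 and Atp5g1 are the 3 calls of complex V. Atp5g1, Atp5md and Atp5mpl were called in 15, 14 and 8 of 24 alternatives. Whether the head and the other parts of complex V differed in their response was not tested.

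**Figure D3:**
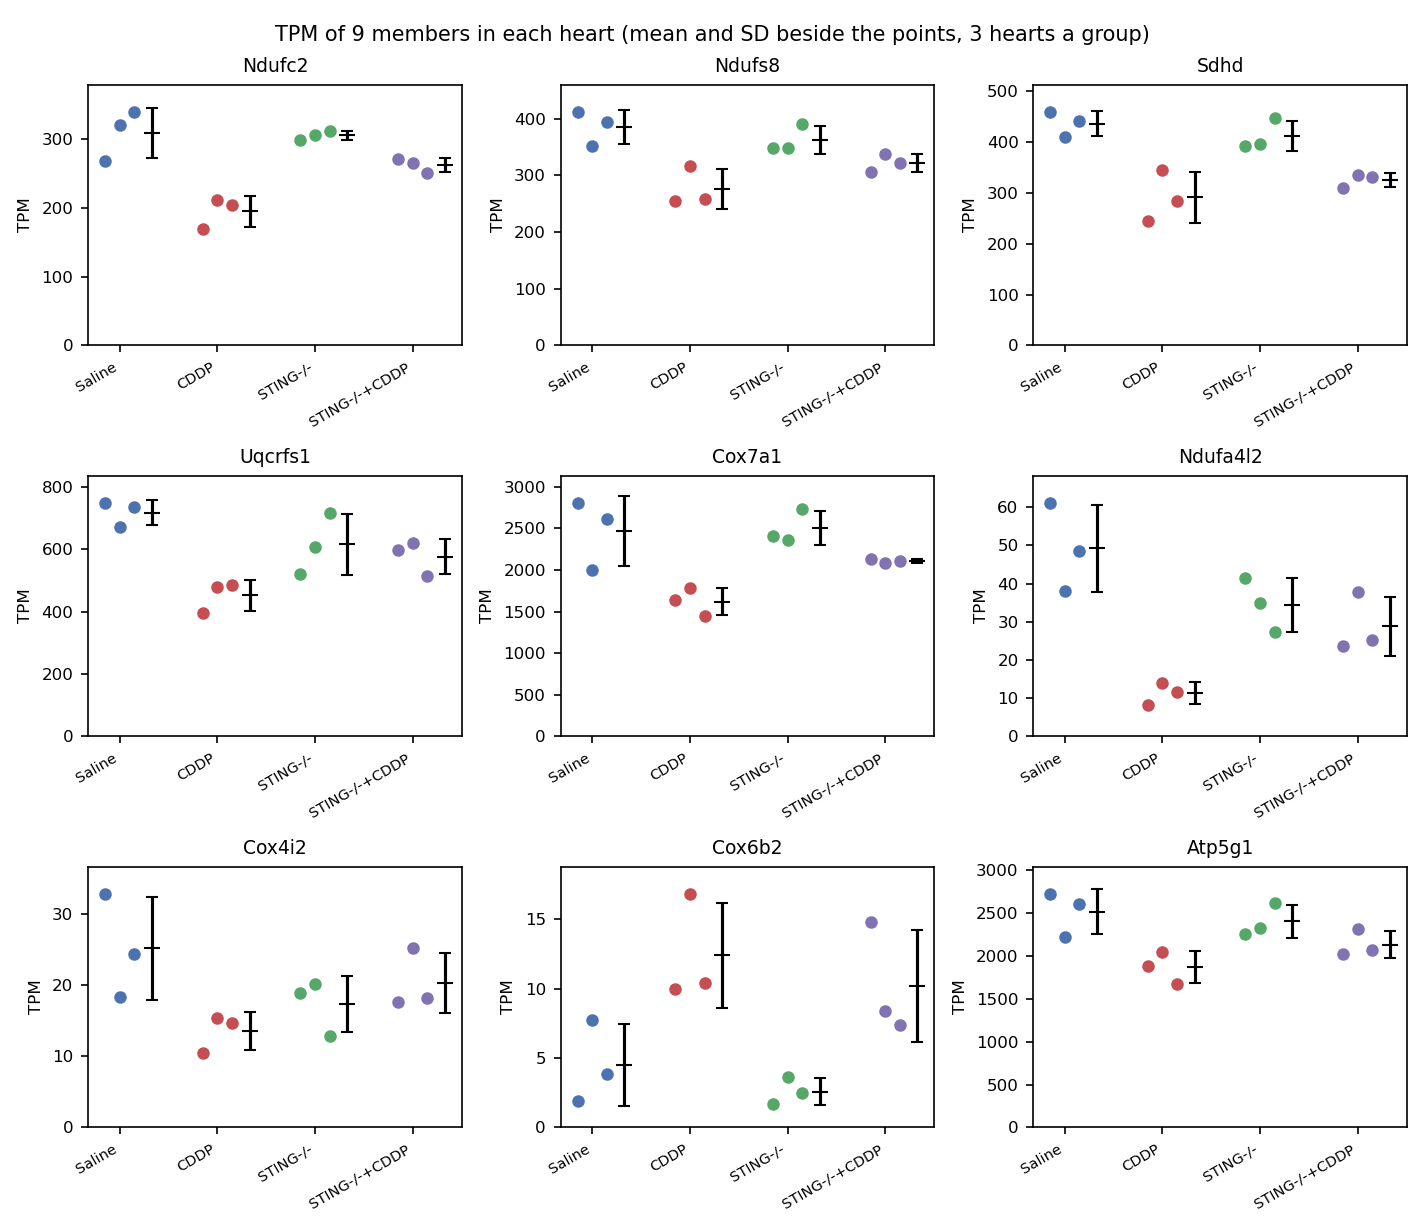
TPM (vertical axes, from 0) of 9 members in each heart, by group, with the mean and SD (bars) of 3 hearts beside the points. In Ndufc2, Uqcrfs1, Cox7a1 and Ndufa4l2 the 3 CDDP hearts lie below all 9 others; Cox6b2 is higher in both groups given cisplatin.

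The count of calls rested on single hearts. It was 4 without the first Saline heart, 6 without the third Saline heart, 7 without the third CDDP heart, 10 without the first CDDP heart and 25 without the second, and 2 when only these 6 hearts were fitted, while all 17 log2 fold changes kept their sign in all 24 alternatives. With Myl7 as a covariate, added after the values had been seen, the median of the members was -0.12 and that of all genes -0.095, so that the members lay 0.023 below all genes in place of 0.17. The members are short transcripts (median 714 bases, against 2662 for all tested genes), and the 1723 tested genes of up to 1000 bases had a median of 0.075.

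The upstream sequence is shown for 4 of the members that fell, each holding a motif searched for, and for Cox6b2, which rose. RefSeq promoters (GRCm38.p6, 250 bases before to 50 after the start) were given for 68 of the 89 members, 74 promoters in all. The motifs were searched on both strands. The NRF1 core GCATGCGC was in 13.5% of the members' promoters (2.71% of all 32851), the ETS site CCGGAAG in 23.0% (8.86%), the YY1 site AAGATGGC in 13.5% (2.75%), the CRE site TGACGTCA in 5.41% (1.79%), the ERR site TCAAGGTCA in 2.70% (0.423%) and its shorter form AAGGTCA, which lies within it, in 10.8% (4.72%). Of the 13 promoters of members that fell, 3 held the NRF1 core, 4 ETS, 1 YY1, 3 CRE, 1 the longer and 2 the shorter ERR site. Below are the 250 bases before the start, read 5′ to 3′ on the gene's strand, at chr13:30545317-30545566 (minus) for Uqcrfs1, chr9:50603850-50604099 (minus) for Sdhd, chr17:56717512-56717761 (plus) for Ndufa11, chr6:39592315-39592564 (plus) for Ndufb2 and chr7:4753095-4753344 (minus) for Cox6b2. Capitals mark CRE in Uqcrfs1, an ETS site on the other strand in Sdhd, CRE and then NRF1 (whose match on both strands spans 10 bases) in Ndufa11, and the shorter ERR site and then CRE in Ndufb2.
Uqcrfs1: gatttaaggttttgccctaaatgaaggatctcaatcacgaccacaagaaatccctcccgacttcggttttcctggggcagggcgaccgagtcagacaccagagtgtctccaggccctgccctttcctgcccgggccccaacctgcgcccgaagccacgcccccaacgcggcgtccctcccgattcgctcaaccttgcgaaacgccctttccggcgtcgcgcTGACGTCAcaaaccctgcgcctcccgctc
Sdhd: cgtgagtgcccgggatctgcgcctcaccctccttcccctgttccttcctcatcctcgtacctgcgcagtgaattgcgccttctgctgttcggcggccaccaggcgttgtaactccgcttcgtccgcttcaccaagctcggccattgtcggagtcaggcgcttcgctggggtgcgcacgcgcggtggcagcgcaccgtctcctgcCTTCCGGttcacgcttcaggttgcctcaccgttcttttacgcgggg
Ndufa11: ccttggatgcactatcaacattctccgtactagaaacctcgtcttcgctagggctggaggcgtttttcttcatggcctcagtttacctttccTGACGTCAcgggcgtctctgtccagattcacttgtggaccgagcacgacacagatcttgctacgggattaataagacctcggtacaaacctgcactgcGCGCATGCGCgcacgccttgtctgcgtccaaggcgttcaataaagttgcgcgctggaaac
Ndufb2: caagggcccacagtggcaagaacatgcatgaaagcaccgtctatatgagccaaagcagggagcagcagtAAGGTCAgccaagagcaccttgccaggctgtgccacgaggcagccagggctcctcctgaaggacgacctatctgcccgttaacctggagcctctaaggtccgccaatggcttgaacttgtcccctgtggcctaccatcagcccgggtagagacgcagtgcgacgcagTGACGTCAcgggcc
Cox6b2: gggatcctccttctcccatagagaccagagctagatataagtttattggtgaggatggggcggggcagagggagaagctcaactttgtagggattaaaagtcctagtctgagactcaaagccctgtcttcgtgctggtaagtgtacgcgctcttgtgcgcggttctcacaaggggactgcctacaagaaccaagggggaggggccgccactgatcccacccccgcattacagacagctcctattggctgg
The CRE site lay 29 to 22 bases before the RefSeq start in Uqcrfs1, 14 to 7 bases before it in Ndufb2 and 158 to 151 bases before it in Ndufa11. By the GENCODE coordinates given above for Uqcrfs1, its RefSeq start and its CRE site both lie inside the gene. The Cox6b2 promoter held none of the 6 motifs. A match describes the letters only and is no evidence that a factor bound there.

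Some of the genes whose products build the chain fell, against 10.4% of all genes tested. Of 15 tested assembly factors of complex I, 6 fell, none rose and all 15 had negative log2 fold changes (median -0.38). They include Ndufaf6 (-0.96), Ndufaf5 (-0.93) and Timmdc1 (-0.76). Of 32 tested assembly factors of complexes II to V, 16 fell, none rose and 5 had positive log2 fold changes (median -0.46). The largest falls were those of Cmc2 (-1.43) and Cox11 (-1.14), which serve complex IV, Sdhaf4 (-1.32), which serves complex II, and Lyrm7 (-1.19) and Bcs1l (-1.09), which place the Rieske protein into complex III. Among 5 tested chain genes that the symbol rule misses, the electron carrier Cycs (-0.84, adjusted p = 0.00139), the cytochrome c1 gene Cyc1 (-0.58) and Ndufab1 (-0.43) fell, and Atpif1, the inhibitor of the ATP synthase, rose (0.43, adjusted p = 0.0323). Of 13 citric acid cycle genes 1 fell (Dlst, -0.58). Of 17 regulators, the transcription factor Nrf1 (0.68) and the mitochondrial transcription factor Tfb2m (0.49) rose and the nuclear receptor Esrra (-0.69) fell. These 3 calls are 17.65% of the regulators, near the 18.9% of all genes called. Of the regulators 11.8% rose (8.52% of all genes) and 5.88% fell, and their median was -0.0023. Whether these lists differed from the subunits was not tested.

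The next question was whether loss of STING changed the levels under cisplatin. Between the STING-/-+CDDP and CDDP groups, 1 of 84 members passed the test (1.19%, against 1.22% of all genes tested), and it rose (against 0.362% of all genes higher and 0.854% lower). This was Ndufa4l2, whose levels are given above, with a log2 fold change of 1.27 (SE 0.25, adjusted p = 0.0402). The call was lost in 13 of 24 alternatives, where the adjusted p ranged up to 0.143 and the log2 fold change stayed between 1.04 and 1.43. It was lost without the first or the third CDDP heart, without any of the 3 STING-/-+CDDP hearts or any of the 3 STING-/- hearts, and without the third Saline heart. Next by p-value came Ndufc2 (0.43, SE 0.12, adjusted p = 0.0972) and Cox7a1 (0.38, SE 0.14, adjusted p = 0.154), both without overlap of the hearts, and neither passed. Cox8b (0.35), Uqcrfs1 (0.35) and Cox4i2 (0.56) were also higher without overlap at an unadjusted p under 0.05. In all 7 members had such a p (19.8% of all genes), 6 of them higher (5.94%) and 1, Ndufa2 (-0.25), lower (13.9%). Counted by overlap alone, 9 members were higher (7.12% of all genes) and 4 lower (15.6%). The CDDP hearts are the same in this comparison and in that with Saline, so the 2 sets of values are not independent.

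The median of the members was 0.055, against -0.095 for all genes, and 29 of 84 were below 0, against 60.4% of all genes. Scaling by the median of ratios moved the median of all genes to 0.0036 and that of the members to 0.17, a distance of 0.17 in place of 0.15. The distance was 0.046 without the third CDDP heart, 0.088 without the third STING-/-+CDDP heart, 0.26 without the second CDDP heart, 0.067 without a filter, 0.054 with arrayWeights and 0.24 with quantile normalization. The members' own median was 0.0018 without the first CDDP heart, where the distance was 0.17, and 0.14 without the second. The medians were 0.073, 0.13, 0.17, -0.061 and 0.050 for complexes I to V, and that of complex IV turned positive with the median of ratios (0.059) and with quantile normalization (0.12). The complex II assembly factor Sdhaf4 was the only gene of the assembly lists that passed (0.84, adjusted p = 0.0408), and it rose. None of the mitochondrially encoded subunits, TCA cycle genes or regulators passed.

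**Figure D4:**
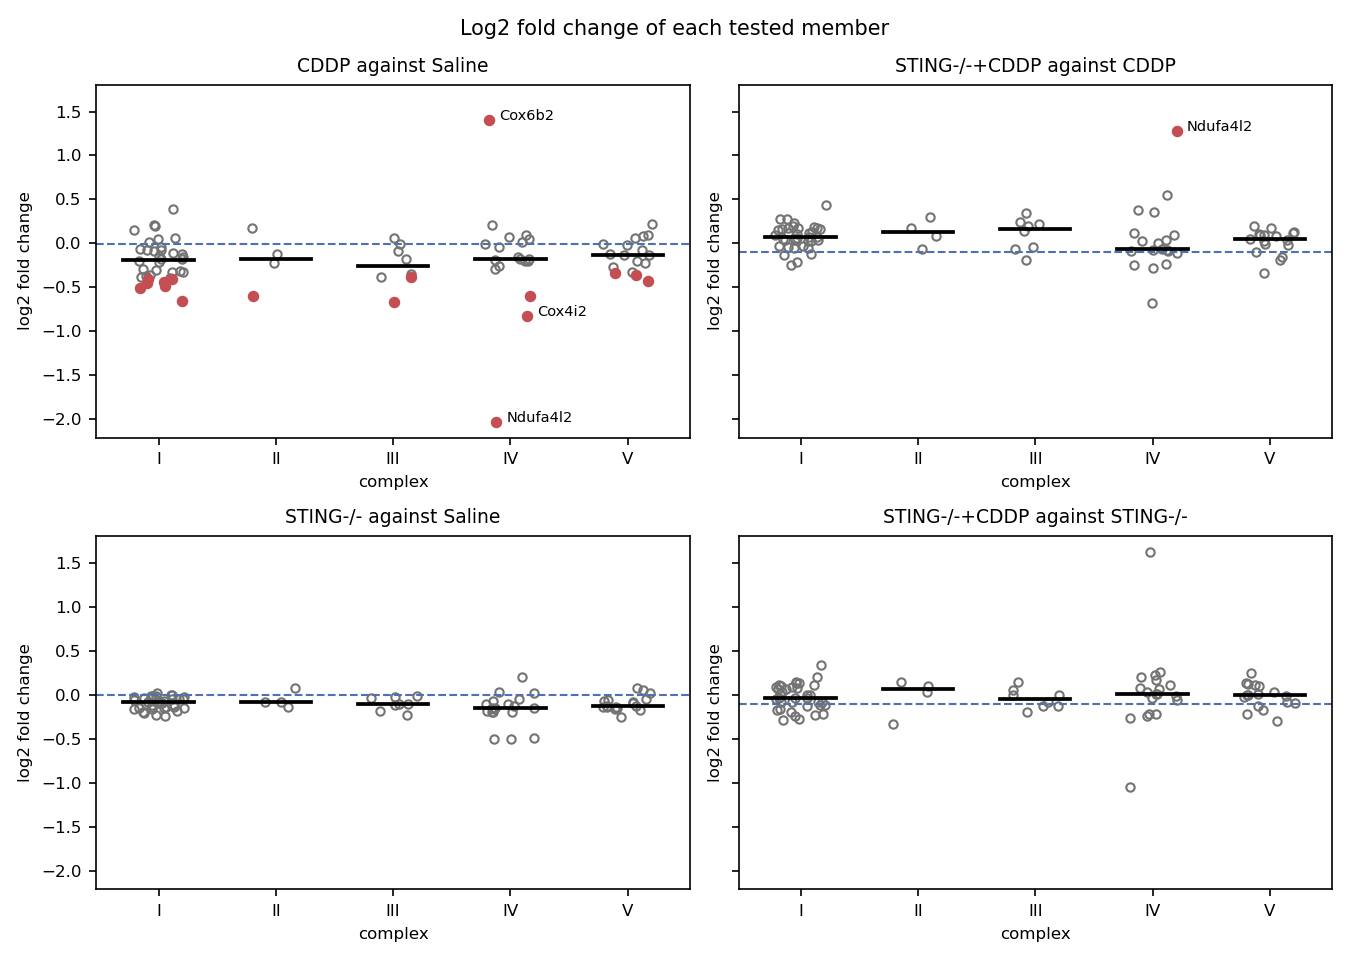
Log2 fold change (vertical axes) of each tested member by complex in 4 comparisons; filled red points passed the adjusted p, open points did not, black bars are the complex medians and the dashed line is the median of all tested genes. CDDP against Saline has 17 filled points, STING-/-+CDDP against CDDP 1, and the other comparisons none.

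Without cisplatin, no member passed the test between the STING-/- and Saline groups (0 of 84, against 0.0724% of all genes, 0.0290% higher and 0.0434% lower). None had an unadjusted p under 0.05 in limma (3.69% of all genes, 1.48% higher and 2.21% lower). The values were lower by a little in most members, with 75 of 84 below 0 (49.7% of all genes) and a median of -0.10, against 0.0017 over all genes. By p-value, Ndufa1 (-0.19), Cox4i2 (-0.50) and Ndufb11 (-0.23) came first, all with an adjusted p of 1. The STING-/- hearts were all below the Saline hearts in 13 members (4.88% of all genes) and all above them in none (2.76%). With Myl7 as a covariate, the members' median was -0.026 and that of all genes -0.13, which turned the members from below to above all genes. The distance between the medians, -0.11, was -0.0055 without the third Saline heart, where the members were at -0.080 and all genes at -0.074. It was -0.041 without the second STING-/- heart, -0.068 without the first Saline heart, -0.23 without the second Saline heart and -0.045 with quantile normalization.

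Between the STING-/-+CDDP and STING-/- groups, no member passed either (0 of 84, against 0.934% of all genes), and at an unadjusted p under 0.05 there were 2 higher and 3 lower (3.67% and 9.79% of all genes). The median was -0.0048, against -0.11 for all genes, and moved to 0.13 with the median of ratios, where that of all genes was 0.0080. The distance between them, 0.10, was 0.020 without the third STING-/-+CDDP heart, 0.025 without the second and 0.16 without the third STING-/- heart, 0.059 with a pseudocount of 5, 0.014 without a filter, 0.052 with arrayWeights, 0.0080 with Myl7 as a covariate, and turned to -0.051 with quantile normalization. Cox6b2 was at 1.66, 3.61 and 2.47 TPM in the STING-/- hearts and 14.8, 8.41 and 7.39 TPM in the STING-/-+CDDP hearts. All 3 hearts with cisplatin were higher, by 1.62 on the log2 scale (SE 0.39, adjusted p = 0.0775), and the adjusted p was under 0.05 in 6 of 24 alternatives (range 0.0130 to 0.243). Ndufa7, an accessory subunit of complex I, was second (0.34, SE 0.10, adjusted p = 0.149), with 446, 452 and 489 TPM in the STING-/- and 577, 602 and 574 TPM in the STING-/-+CDDP hearts and no overlap. The next were Sdhd (-0.34), Ndufa11 (-0.28) and Atp5g3 (-0.29), each lower without overlap. Counted by overlap alone, 14 members were higher (7.28% of all genes) and 13 lower (16.9%).

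The difference between the cisplatin effects in the 2 genotypes was tested as the interaction. No member passed (0 of 84, against 0.00724% of all genes, which is 1 gene). At an unadjusted p under 0.05, 7 were positive and none negative (4.39% and 7.30% of all genes), meaning less of a fall or more of a rise with cisplatin in STING-/- mice. These were Ndufa4l2 (1.77, SE 0.35, adjusted p = 0.267), Cox4i2 (1.06), Uqcrfs1 (0.58), Uqcr11 (0.38), Ndufc2 (0.44), Atp5md (0.35) and Cox8b (0.46). The median of the members was 0.18, against -0.10 for all genes, and 16 of 84 were negative, against 59.8% of all genes. With Myl7 as a covariate the medians were 0.085 and 0.055. The distance between the medians, 0.28, was 0.15 without the third CDDP heart and 0.16 without the third Saline heart. Without the first CDDP heart the members' median was 0.098 and the distance 0.27. A difference between genotypes in the response to cisplatin is therefore not shown for any single member.

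Isoforms of complex IV were compared within each heart as the log2 ratio of their TPM, which does not depend on the scaling of the heart. With 3 hearts a group, the smallest two-sided p of the exact permutation test is 0.10, so that none of the 32 comparisons could pass, and the adjusted value of each at that p is 0.246. The ratio of Cox7a1 to the general form Cox7a2 was 2.10 ± 0.23 (SD, n = 3) with saline and 1.43 ± 0.15 with CDDP, and in STING-/- hearts 2.32 ± 0.067 without and 2.06 ± 0.072 with cisplatin. The CDDP hearts had the lowest ratios, without overlap with any other group. The difference was -0.67 for CDDP minus Saline and 0.63 for STING-/-+CDDP minus CDDP (exact permutation p = 0.10 for each). The STING-/-+CDDP hearts were also below the STING-/- hearts without overlap (-0.26). Of the other muscle isoforms, Cox6a2 over Cox6a1 was higher with CDDP than with saline (3.04 ± 0.17 and 2.65 ± 0.18, without overlap), and Cox8b over Cox8a overlapped between these groups (1.90 ± 0.36 and 2.12 ± 0.47).

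The ratio of Ndufa4l2 to Ndufa4 was -5.34 ± 0.29 with saline and -7.20 ± 0.24 with CDDP, and in STING-/- hearts -5.69 ± 0.27 without and -5.97 ± 0.38 with cisplatin. That of Cox4i2 to Cox4i1 was -6.96 ± 0.29, -8.05 ± 0.37, -7.38 ± 0.39 and -7.34 ± 0.25 in the same order. In Ndufa4l2 over Ndufa4 the CDDP hearts lay below every other heart, and in Cox4i2 over Cox4i1 they lay below all Saline and all STING-/-+CDDP hearts. Cox6b2 over Cox6b1 was higher with cisplatin in both genotypes without overlap, by 1.85 in wild-type and 2.04 in STING-/- hearts. Among the c subunit genes of complex V, Atp5g1 over Atp5g3 and Atp5g2 over Atp5g3 overlapped between CDDP and Saline (-0.099 and 0.19).

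**Figure D5:**
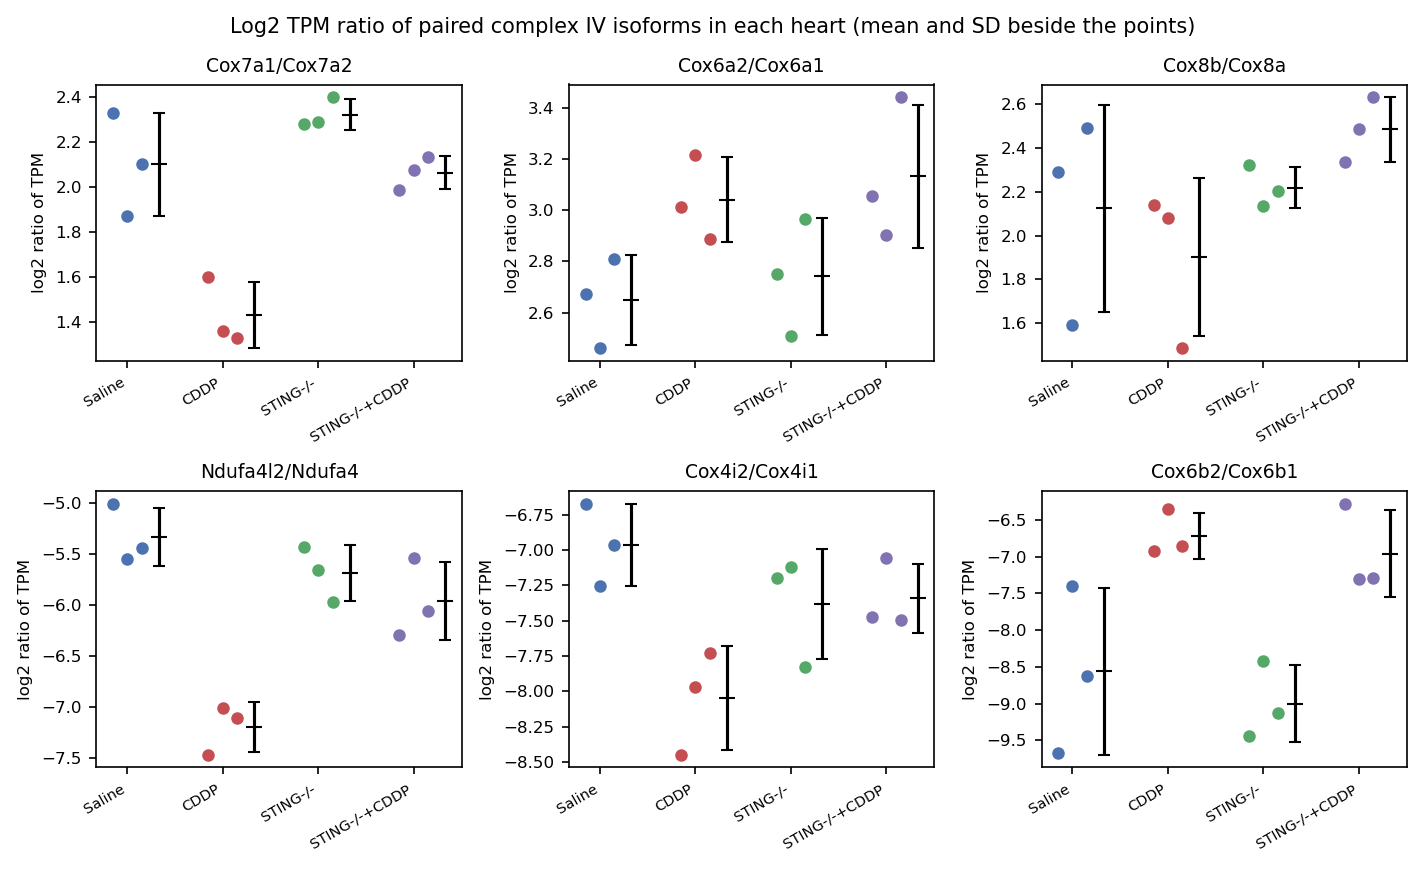
Log2 ratio of TPM (vertical axes, which do not start at 0) of 6 complex IV isoform pairs in each heart, by group, with mean and SD of 3 hearts beside the points. Cox7a1/Cox7a2 and Ndufa4l2/Ndufa4 are lowest in the CDDP hearts, and Cox6b2/Cox6b1 is higher in both groups given cisplatin.

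Several members share nearly identical sequence with copies elsewhere in the genome, so their levels are uncertain. Of the 84 tested members, 24 had a gene in the table that matched at 97% identity or more over at least 150 bases, and in 5 these held over 10% of the combined TPM in some heart. The pseudogene Ndufb4c, itself a member, was listed with 90.4% to 91.8% of the TPM it shares with Ndufb4. Summed with the copies, Ndufb4, Cox7c and Atp5l had log2 differences of -0.090, -0.23 and 0.025 between CDDP and Saline, with overlapping hearts. Atp5g2 alone had -0.13, while its sum with its copies had 0.37, from a mean of 605 to 784 TPM, without overlap (exact permutation p = 0.10, the smallest possible). Ndufs5 had 540 TPM with saline and 487 with CDDP on average. Its copy Ndufs5-ps, which the rule leaves out and which was picked after its values were seen, was at 201, 157 and 199 TPM with saline and 148 TPM in the first CDDP heart, and was listed at 0 in the other 8. The log2 difference of the sum of both was -0.44 between CDDP and Saline and -0.40 between STING-/- and Saline, each without overlap (exact permutation p = 0.10). In the same order, Ndufs5 alone had -0.15 and 0.023, and Ndufs5-ps alone -5.13 and -7.54. None of the 17 members called between CDDP and Saline had over 10% of its TPM in copies. The pseudogene Cox6c2, the lowest tested member, was above 0 in only 3 hearts, with 4.88, 3.06 and 7.91 TPM, each in a different group.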

How the data were processed

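RNA-seq of cardiac tissues from 12 hearts was analysed, 3 in each group, with groups taken from genotype and treatment in the labels. The authors deposited TPM per gene, rounded to 2 decimals. The submitters' processing notes name fastp, HISAT, RSEM and GRCm38.p5, with no role or order. TPM holds no counts, so depth is unknown and no count model was used. The 4 columns of the authors' group means were not used. Positions and biotypes came from GENCODE M21 (GRCm38), which held 55141 of the 55885 identifiers, and promoters from RefSeq.

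Values were taken as log2(TPM + 1) and fitted with limma 3.58.1 in R 4.3.3 (1 model of 12 hearts, 8 residual degrees of freedom, eBayes with trend), and two-sided p-values were adjusted by Benjamini-Hochberg over 13815 tested genes (threshold 0.05). The fold change of low genes is understated by the added 1. The fit was tested on simulated data. Isoform ratios used TPM + 0.01 and exact permutation tests, adjusted over 32. Nothing says how hearts were processed in batches. Copies were found with BLAST 2.17.0, and Python 3.11.15 with matplotlib 3.10.9 drew the figures. Ndufa4 and Ndufa4l2 were placed with complex IV. The genes named are, per complex, the most abundant member and up to 3 largest rises and falls called between CDDP and Saline (all members of complexes II and III), in other comparisons the 5 lowest adjusted p-values called or else the 3 lowest p-values, the isoform pairs, members not tested, and called genes of the other lists. Any further member named was picked with its values in view. The members and lists were chosen with earlier results of these data known, and the mural cell and hypoxia lists after the values had been seen.

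Same-numbered hearts are different animals, and their deviations from the group means did not correlate (18 pairs, r -0.33 to 0.26, median -0.013), so the numbers do not pair the hearts. The alternatives were other pseudocounts (0.1 and 5), filters, scalings and variance settings, a fit of only the groups compared, a replicate block, a Myl7 covariate and each heart left out.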

Additional observations from a re-analysis of the deposited data

How the results depend on the processing

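Of the members called between CDDP and Saline (17), the count was 8 without a filter, 2 with only the groups compared, 6 with the median of ratios, 35 with quantile normalization, 10 without a trend and 10 with the replicate block, and between 4 and 25 with 1 heart left out. Between STING-/-+CDDP and CDDP (1), it was 0 without a filter, with only the groups compared, with arrayWeights and with the replicate block, 2 without mitochondrially encoded genes, 3 with quantile normalization, and 0 to 1 with 1 heart left out. Between STING-/-+CDDP and STING-/- (0), it was 1 with the median of ratios, with quantile normalization and with Myl7 as a covariate, 2 with arrayWeights, and 0 to 1 with 1 heart left out. Counts for STING-/- against Saline and for the interaction were 0 throughout. The replicate block, whose numbers do not pair the hearts (1 of 12 hearts correlated best with its own number), changed no other count by over 1.5 times. With only the groups compared, fewer hearts set the variance. Other causes were not tested.

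Complex medians moved by more than their spread between hearts in these cases. With quantile normalization, CDDP against Saline was -0.34, -0.42 and -0.26 in complexes I, III and V, STING-/-+CDDP against CDDP was 0.26, 0.31, 0.36, 0.12 and 0.21 in complexes I to V, STING-/- against Saline was -0.025 in complex V, and the interaction was 0.31, 0.33 and 0.24 in complexes I, III and IV. With the median of ratios, STING-/-+CDDP against CDDP was 0.19, 0.29, 0.059 and 0.17 in complexes I, III, IV and V, STING-/-+CDDP against STING-/- was 0.10, 0.21, 0.092, 0.15 and 0.13 in complexes I to V, and the interaction was 0.31, 0.33, 0.23 and 0.26 in complexes I, III, IV and V. With Myl7 as a covariate, STING-/- against Saline was -0.035 in complex V and the interaction 0.077 in complex III. With 1 heart left out, CDDP against Saline ranged from -0.31 to -0.11 in complex I, STING-/-+CDDP against CDDP from 0.044 to 0.27 and the interaction from 0.067 to 0.36 in complex III. The ratio of Atp5g1 to Atp5g3 ranged from -0.21 to -0.044 between CDDP and Saline and from 0.24 to 0.40 between STING-/-+CDDP and CDDP. The isoform ratios with TPM + 1 (32) and the complex medians with Ndufa4 and Ndufa4l2 in complex I moved by less than that spread. No called member changed sign. TPM gives no depth, so what depth limits is unknown; with 3 hearts a group, small differences were not detectable.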

Other observations

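The subunits that mitochondrial DNA encodes work in the same complexes as the nuclear ones. Of the 13, mt-Atp6 and mt-Nd6 were listed at 0 in all hearts. Between STING-/-+CDDP and CDDP hearts, 9 of the 11 tested had a log2 fold change above 0, with a median of 0.34, against 0.055 for the nuclear-encoded members and -0.095 for all genes. None passed the test (lowest adjusted p = 0.118 in limma), and 5 had an unadjusted p under 0.05, all higher, with no overlap of the hearts. Of all genes, 5.94% were higher at that unadjusted p and 7.12% were higher without overlap. In mt-Nd1, a core subunit of complex I, the CDDP hearts had 16697, 16434 and 13862 TPM and the STING-/-+CDDP hearts 20152, 18490 and 23883 TPM, with no overlap (log2 fold change 0.41, SE 0.14, adjusted p = 0.155). Summed, these subunits took 182200 to 228400 TPM in CDDP hearts and 229300 to 267200 TPM in STING-/-+CDDP hearts.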
